A study of Mus musculus with 8 samples.

Results

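The genes described here are 9 that make the cargo of Weibel-Palade bodies or serve its release, namely the cargo genes *Vwf*, *Selp*, *Cd63*, *Angpt2* and *Plat* and the release genes *Rab27a*, *Rab3d*, *Sytl4* and *S100a10*. They were named for these roles, without a criterion on their values, though earlier results of these data were known. All 9 had a row among the 21859 gene rows of every file, and all 9 were among the 15077 genes that passed the filter on low counts.

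Weibel-Palade bodies are the elongated storage granules of endothelial cells. Von Willebrand factor forms the granule by packing into tubules in the trans-Golgi network, and P-selectin, CD63, angiopoietin-2 and tissue plasminogen activator are stored with it. When the endothelium is activated, the Rab GTPases on the granule surface and the proteins they recruit tether it to actin and to the plasma membrane, and the granule empties its cargo into the vessel or onto the cell surface, where von Willebrand factor catches platelets and P-selectin catches leukocytes.

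The RNA came from whole aortas of 4 ApoE knockout (ApoE-/-) and 4 wild-type (WT) male C57BL/6 mice, 40 weeks old and fed a normal chow diet without further treatment. The knockout removes apolipoprotein E from the whole animal and makes mice prone to atherosclerosis, so that no cell type was targeted. One library was made from each aorta. The question put to these samples was which genes differ in expression in the aorta of ApoE-/- mice.

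The read pairs counted on genes numbered 23240995 to 23940156 in ApoE-/- libraries and 18375898 to 21664598 in WT libraries. Pairs that were not assigned to a gene made up 64.4% to 67.7% of ApoE-/- and 69.8% to 72.1% of WT libraries, and those outside any annotated feature 50.1% to 54.7% and 56.4% to 58.0%, both without overlap. The part of this difference in the results was not tested. *Apoe* itself was at 14.7 to 36.3 CPM (counts scaled to a common library size with edgeR's TMM factors) in ApoE-/- aortas and at 536 to 857 CPM in WT aortas (edgeR log2 fold change -4.83, adjusted p = 0.0141). The aorta labelled ApoE-/- replicate 1 stood apart, because the summed level of 10 markers of sympathetic neurons and chromaffin cells was 4877 CPM there and 28.9 to 856 CPM in the other 7 aortas, and all 10 markers were at their highest there. Values without that mouse are therefore given beside the main results for the 9 genes. The 20 endothelial markers were all detected. Their summed level was 2630 to 3423 CPM in ApoE-/- aortas and 3677 to 4102 CPM in WT aortas, without overlap, and 19 of the 20 had a lower fitted level in ApoE-/- aortas (median log2 fold change -0.42, against 0.05 over all genes tested). None of them passed the edgeR threshold, 13 had an unadjusted p under 0.05, and DESeq2 called 10. In whole tissue, fewer endothelial cells and less RNA per endothelial cell cannot be told apart.

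The member with the largest difference between the genotypes was *Selp*, so the start of the gene and the primers listed for it are shown first. *Selp* lies at chr1:164115264-164150026 on the plus strand (GRCm38, GENCODE M21). The 300 bases around its RefSeq start, 250 before and 50 after it, are at chr1:164115014-164115313 on the plus strand of GRCm38.p6 and read as follows, with capitals on GATA or its reverse complement TATC, the letters recognized by GATA factors.
Selp promoter: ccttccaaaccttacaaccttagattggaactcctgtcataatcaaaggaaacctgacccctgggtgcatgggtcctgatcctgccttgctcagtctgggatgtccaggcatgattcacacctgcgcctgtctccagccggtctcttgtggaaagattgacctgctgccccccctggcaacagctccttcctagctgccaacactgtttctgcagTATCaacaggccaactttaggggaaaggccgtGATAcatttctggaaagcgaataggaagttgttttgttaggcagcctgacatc
Both strands were searched. The window held GATA 2 times, as 57.9% of the 32851 promoters of the same length did at least once. It held the AP-1 letters TGANTCA 1 time, which 7.81% of promoters did, and no match to the NF-kB consensus, which 8.46% of promoters held. Of the other members, 4 had promoters in the same table. GATA was found 1 time each in those of *Cd63* and *Sytl4* and not in those of *Rab3d* and *Rab27a*, and neither of the other motifs was found in any of them.

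The primers that the study lists for *Selp* in its quantitative PCR are the other sequences of interest.
Selp forward primer: gaaagggctgattgtgacccc
Selp reverse primer: agtagttccgcactgggtaca
Each is 21 bases long and was found without mismatch in transcripts of *Selplg*, the gene of the P-selectin ligand on leukocytes, whereas the nearest stretch of a *Selp* transcript was 6 edits away for the forward and 7 for the reverse primer. The RNA-Seq counts separate the 2 genes. *Selplg* was at 8.48, 6.43, 9.84 and 16.5 CPM in ApoE-/- replicates 1 to 4 and at 4.04, 2.71, 2.38 and 3.69 CPM in WT replicates 1 to 4. The genotypes did not overlap for this gene (edgeR log2 fold change 1.68, adjusted p = 0.0652, and 0.0327 without ApoE-/- replicate 1, DESeq2 adjusted p = 0.000118).

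Of the cargo genes, *Selp* was 2.46 times as high in ApoE-/- as in WT aortas in the fit, past the threshold with DESeq2 and not with edgeR, while *Vwf*, the gene of the protein that builds the granule, had a mean below that of WT. *Cd63*, *Angpt2* and *Plat* lay between. ApoE-/- replicate 1 was below all WT aortas for *Cd63* and *Plat*, and ApoE-/- replicates 1 and 4 were within the WT range for *Angpt2*. No member passed an adjusted p of 0.05 in edgeR's quasi-likelihood test with all 8 mice, which called 0.464% of all genes tested. At an unadjusted p under 0.05, 2 of the 9 passed, *Selp* and *Plat*, against 11.4% of all genes. DESeq2 called 1 of the 9, *Selp*, against 4.41% of all genes. Limma-voom called none of the 9 and 29 of all 15077 genes. The median log2 fold change over the 9 genes was 0.37 with all mice and 0.13 without ApoE-/- replicate 1, beside 0.05 and 0.0046 over all genes tested.

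**Figure D1:**
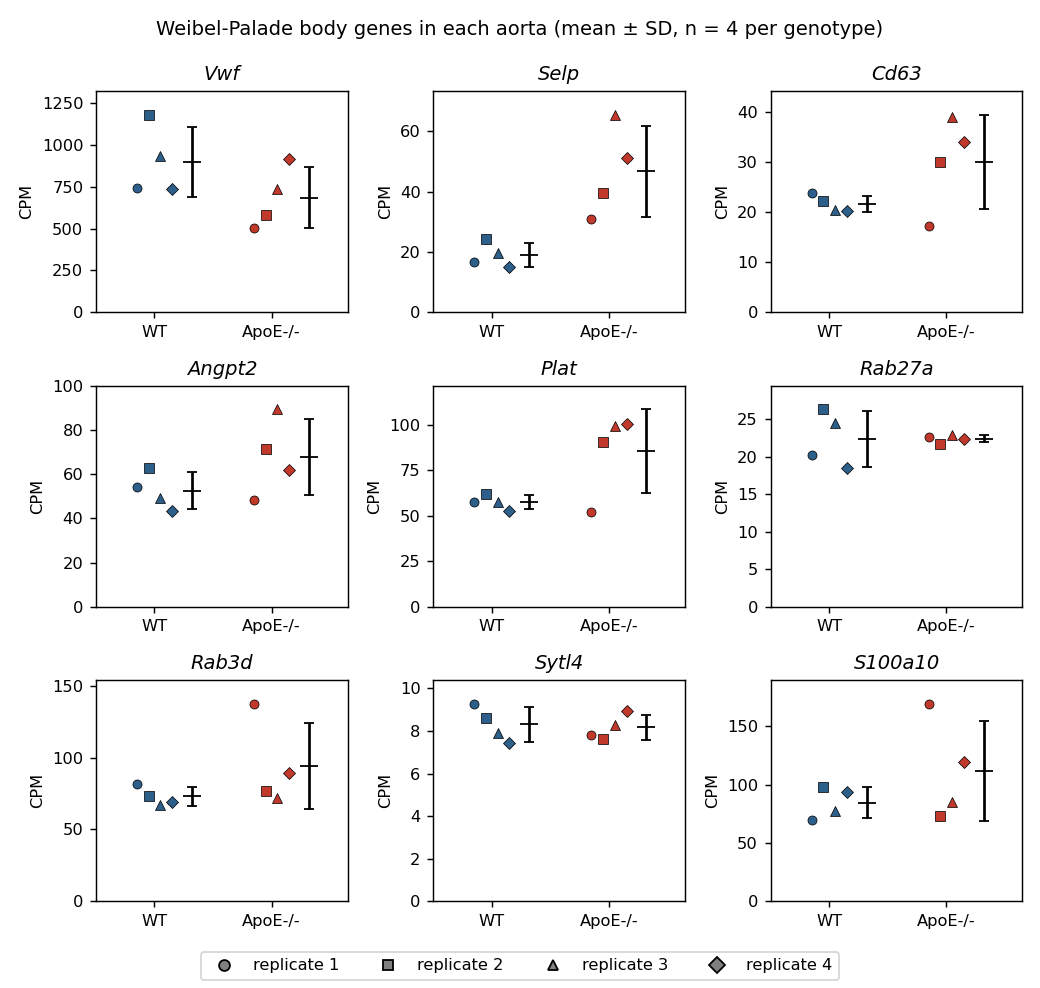
Level in CPM (vertical axis, from 0) of each of the 9 genes in each of the 8 aortas, with WT in blue, ApoE-/- in red, one symbol per replicate number and the mean ± SD beside each group. *Selp* was the only gene whose ApoE-/- values, 30.8 to 65.6 CPM, all lay above the WT values, 15.1 to 24.4 CPM.

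*Selp* encodes P-selectin, the adhesion receptor that the granule delivers to the cell surface and on which leukocytes begin to roll. Its level was 30.8, 39.4, 65.6 and 51.3 CPM in ApoE-/- replicates 1 to 4 and 16.8, 24.4, 19.6 and 15.1 CPM in WT replicates 1 to 4. All ApoE-/- aortas were above all WT aortas, and *Selp* was the only 1 of the 9 genes without overlap (11.1% of the set), while 8.71% of all genes tested were without overlap. The means were 46.8 ± 15.1 (SD, n = 4) and 19.0 ± 4.05 CPM (SD, n = 4). The fitted level was 2.46 times as high in ApoE-/- aortas (log2 fold change 1.30 ± 0.25, SE). The adjusted p was 0.0684 in edgeR and 0.000387 in DESeq2. Leaving out ApoE-/- replicate 1 gave a log2 fold change of 1.46 and an edgeR adjusted p of 0.0136. That fit called 3.91% of all genes. Leaving out any other single mouse left edgeR's adjusted p above the threshold, up to 0.227. Only 0 to 17 of all genes passed the threshold in those edgeR fits. DESeq2 called *Selp* with any one mouse left out, with adjusted p up to 0.00974, in fits that called 427 to 1548 genes.

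The antisense genes *Gm16548* and *Gm16587* overlap *Selp* on the opposite strand by 438 and 186 exonic bases. The libraries were made with a stranded kit, which keeps the strand of each RNA. P-selectin is also made by megakaryocytes and carried by platelets, so platelet markers were read beside it. The summed level of 12 platelet markers was 29.5 to 65.7 CPM in ApoE-/- aortas and 31.2 to 43.1 CPM in WT aortas, and 4 of the 8 that could be tested had a higher fitted level and 4 a lower one. None of the 8 passed the threshold in edgeR (0 at an unadjusted p under 0.05) or in DESeq2. *Pf4*, platelet factor 4, was at 8.77 to 26.6 CPM against 8.70 to 12.5 CPM.

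*Vwf* (chr6:125546774-125686679, plus strand) encodes von Willebrand factor, which is required for the granule to form and tethers platelets to the exposed vessel wall. Its level was 502, 580.0, 739.8 and 919 CPM in ApoE-/- replicates 1 to 4 and 745, 1182, 932 and 739 CPM in WT replicates 1 to 4. The lowest values were those of ApoE-/- replicates 1 and 2, and the other ApoE-/- values lay within the WT range. The means were 685 ± 184 and 899.6 ± 209 CPM (SD, n = 4 each). The fitted log2 fold change was -0.39 ± 0.25 (SE), with an edgeR unadjusted p of 0.152 and an adjusted p of 0.664. It was -0.27 without ApoE-/- replicate 1, -0.23 without WT replicate 2 and -0.57 without ApoE-/- replicate 4, and stayed below 0 in each of the 17 alternatives fitted, with adjusted p from 0.393 to 0.885. The endothelial markers had lower fitted levels in these aortas too, and the ratio of *Vwf* to them is given further on.

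*Cd63* (chr10:128900989-128912822, plus strand) encodes a tetraspanin that reaches the granule from late endosomes and is carried to the cell surface with P-selectin. Its level was 17.1, 30.1, 39.1 and 34.1 CPM in ApoE-/- replicates 1 to 4 and 23.7, 22.1, 20.4 and 20.2 CPM in WT replicates 1 to 4. ApoE-/- replicate 1 was the lowest of the 8 and the other ApoE-/- aortas were the highest 3. With all mice the fitted log2 change was 0.48 ± 0.23 (SE, edgeR adjusted p = 0.516). Without that mouse it was 0.67 ± 0.12 (SE, adjusted p = 0.0260). Part of the *Cd63* message has a close copy elsewhere. Of the 1014 stretches of 50 bases in the transcript Cd63-201, 387 (38.2%) also occur unchanged in the pseudogene *Cd63-ps*, and 742 (73.2%) occur there within 2 edits. Read pairs aligned to several places were left out of the deposited counts, so the level of *Cd63* may be undercounted against that of other genes, while the comparison between genotypes uses the same positions in both.

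*Plat* (chr8:22757727-22782844, plus strand) encodes tissue plasminogen activator, the protease that starts fibrinolysis. Its level was 52.0, 90.6, 99.6 and 101 CPM in ApoE-/- replicates 1 to 4 and 57.7, 62.1, 57.8 and 52.7 CPM in WT replicates 1 to 4. Again ApoE-/- replicate 1 was the lowest of the 8, and the other ApoE-/- aortas stood above all WT aortas. The fitted log2 change was 0.57 ± 0.20 (SE, edgeR adjusted p = 0.295) with all mice and 0.75 ± 0.09 (SE, adjusted p = 0.00806) without that mouse.

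*Angpt2* (chr8:18690263-18741562, minus strand) encodes angiopoietin-2, a ligand of the endothelial receptor Tie2 that loosens contacts of the vessel wall. Its level was 48.2, 71.6, 89.5 and 62.2 CPM in ApoE-/- replicates 1 to 4 and 54.3, 63.1, 49.4 and 43.2 CPM in WT replicates 1 to 4. ApoE-/- replicates 1 and 4 lay within the WT range and replicates 2 and 3 above it. The fitted log2 change was 0.37 ± 0.20 (SE, edgeR adjusted p = 0.580) with all mice and 0.51 (adjusted p = 0.146) without ApoE-/- replicate 1. Without ApoE-/- replicate 3 it was 0.21 (adjusted p = 0.725).

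The 4 release genes overlapped between the genotypes in CPM, and none passed the threshold in edgeR or DESeq2. *Rab27a* and *Sytl4* had log2 fold changes near 0. The higher means of *Rab3d* and *S100a10* in ApoE-/- aortas came mostly with replicate 1, and replicate 4 was also above all WT aortas. *Rab27a* (chr9:73044854-73097629, plus strand) encodes the GTPase that marks mature granules and recruits the effectors that hold them at the cell cortex. Its level was 22.6, 21.7, 22.9 and 22.4 CPM in ApoE-/- replicates 1 to 4 and 20.1, 26.3, 24.5 and 18.4 CPM in WT replicates 1 to 4, so that the ApoE-/- values sat inside the WT range. The fitted log2 change was 0.00 ± 0.13 (SE, edgeR adjusted p = 0.997), and 0.0020 without ApoE-/- replicate 1. Its exons share 149 bases with *Gm27186* on the same strand, where reads cannot be assigned to either gene.

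*Sytl4* (chrX:133936385-133981812, minus strand) encodes granuphilin (Slp4), the Rab27a and Rab3d effector that promotes release. Its level, the lowest of the 9 genes in CPM and per kilobase of exon, was 7.83, 7.61, 8.28 and 8.94 CPM in ApoE-/- replicates 1 to 4 and 9.27, 8.61, 7.92 and 7.42 CPM in WT replicates 1 to 4. Both ranges nearly coincided. The fitted log2 change was -0.02 ± 0.13 (SE, edgeR adjusted p = 0.968), and -0.0045 without ApoE-/- replicate 1. The levels of this gene rest on 143 to 206 read pairs per library.

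*Rab3d* (chr9:21907491-21918192, minus strand) encodes a second GTPase of the granule membrane. Its level was 137, 76.4, 72.1 and 89.4 CPM in ApoE-/- replicates 1 to 4 and 81.9, 73.4, 67.4 and 69.4 CPM in WT replicates 1 to 4. *S100a10* (chr3:93555080-93564643, plus strand) encodes p11, the partner of annexin A2 in release. Its level was 169, 73.0, 84.7 and 119 CPM in ApoE-/- replicates 1 to 4 and 69.9, 97.6, 77.3 and 93.6 CPM in WT replicates 1 to 4. For both genes ApoE-/- replicate 1 was the highest of the 8 aortas, and replicate 4 was also above all WT aortas. ApoE-/- replicates 2 and 3 lay within the WT range. Without replicate 1 the ApoE-/- means were 79.3 CPM for *Rab3d* and 92.2 CPM for *S100a10*, against 73.0 and 84.6 CPM in WT. The log2 fold change of *Rab3d* fell from 0.36 ± 0.21 (SE, edgeR adjusted p = 0.608) to 0.12 without that mouse. That of *S100a10* fell from 0.40 ± 0.26 (SE, adjusted p = 0.693) to 0.13.

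**Figure D2:**
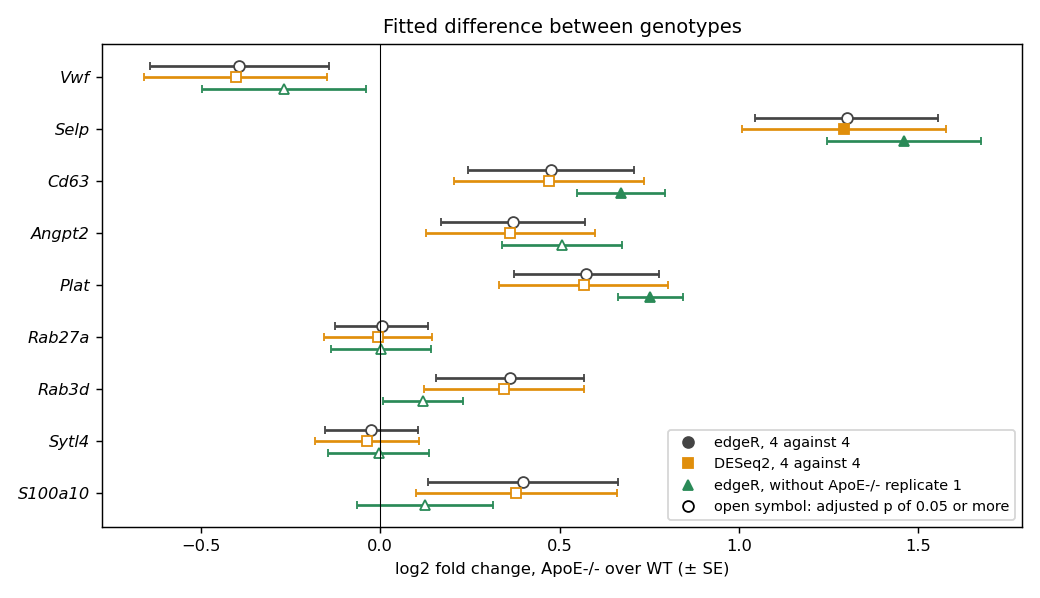
Fitted log2 fold change, ApoE-/- over WT (horizontal axis, bars ± SE), of each gene with edgeR on all 8 mice (grey circles), with DESeq2 on all 8 mice (orange squares) and with edgeR without ApoE-/- replicate 1 (green triangles). Filled symbols have an adjusted p under 0.05, which were *Selp* with DESeq2 and *Selp*, *Cd63* and *Plat* without that mouse.

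Without ApoE-/- replicate 1, 3 of the 9 genes passed the threshold, all of them cargo genes (33.3% of the set), while edgeR called 3.91% of all genes in that fit. In replicate 1 itself, *Vwf*, *Cd63* and *Plat* were lower than in any of the other 7 aortas, *Rab3d* was 1.87 times and *S100a10* 1.99 times the median of the other 7, and *Selp*, *Angpt2*, *Rab27a* and *Sytl4* were within their range. Many proteins that release Weibel-Palade bodies also release the vesicles of neurons, and among 23 other Rab, effector and SNARE genes of the granule 12 were at their highest and 6 at their lowest in that aorta, beside 26.4% and 22.6% of all genes tested. *Rab3b*, *Rab15* and *Syt5* stood out most, at 235, 92.1 and 44.2 CPM, or 15.3, 13.1 and 12.4 times the median of the other 7. *Rab3b* and *Rab15* were chosen for mention after their values were seen. The part of neuronal RNA in the values of the 9 genes was not tested.

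**Figure D3:**
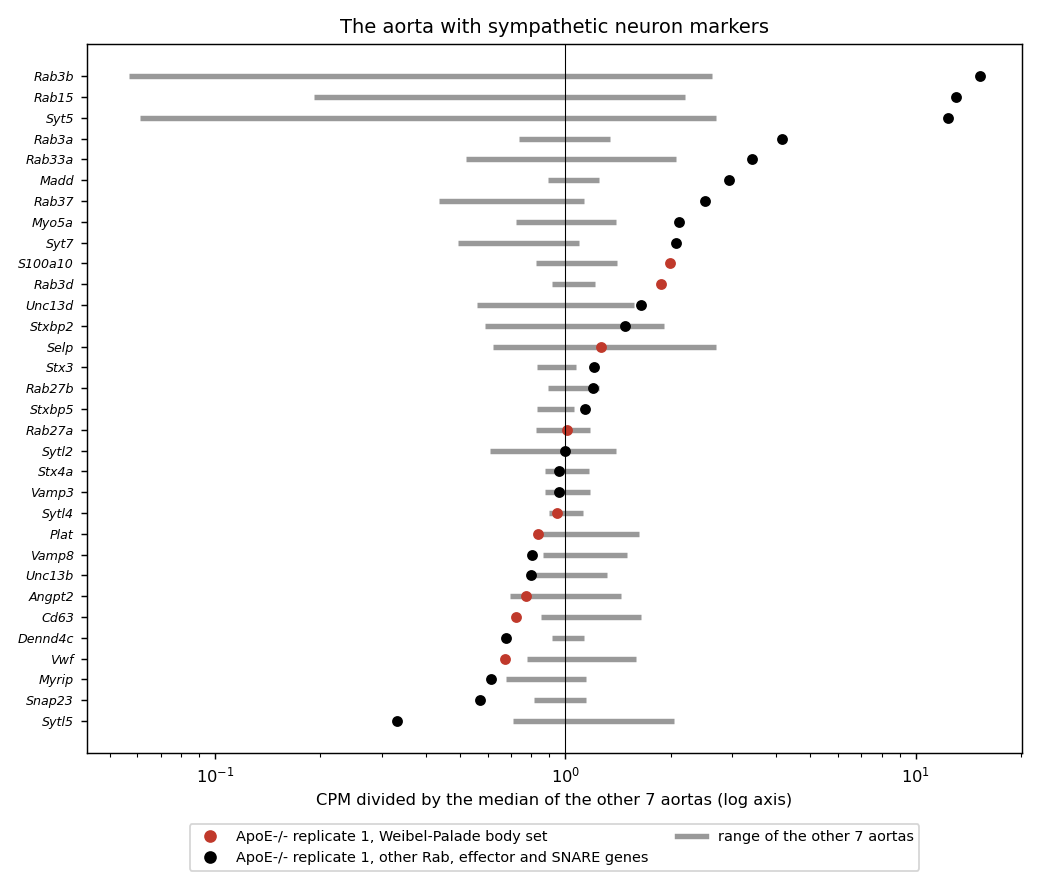
Level in ApoE-/- replicate 1 divided by the median of the other 7 aortas (horizontal log axis) for the 9 genes (red points) and 23 other Rab, effector and SNARE genes (black points), with the range of the other 7 aortas as a grey bar. *Rab3d* and *S100a10* lay to the right of their bars at 1.87 and 1.99, and *Vwf*, *Cd63* and *Plat* to the left of theirs.

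Because the granule belongs to endothelial cells, each gene was also set against the 20 endothelial markers, as its log2 CPM less the mean log2 CPM of the markers in the same aorta. That mean was lower by 0.46 on the log2 scale in ApoE-/- aortas, so a gene at a constant level rises by this amount on the relative scale. Relative to the markers, all ApoE-/- aortas were above all WT aortas for 7 of the 9 genes, and the same held for 39.4% of all genes tested. For *Selp* the relative level was -1.58, -1.24, -0.44 and -1.05 in ApoE-/- replicates 1 to 4 and -2.88, -2.40, -2.72 and -3.18 in WT replicates 1 to 4. The genotypes were far apart, and the difference of 1.72 was 3.29-fold (exact two-sided permutation test, p = 0.0286, the smallest that 4 against 4 can give). For *Vwf* it was 2.45, 2.64, 3.05 and 3.12 in ApoE-/- and 2.58, 3.19, 2.84 and 2.42 in WT replicates 1 to 4. Here the genotypes overlapped throughout and differed by 0.05 (exact permutation p = 0.829), which was within the spread between mice. This difference was 0.17 without ApoE-/- replicate 1, and with 1 mouse left out it ran from -0.060 (without WT replicate 4) to 0.20 (without WT replicate 2). Among the others, *Plat* differed by 0.98, *Angpt2* by 0.80, *S100a10* by 0.79, *Rab3d* by 0.77, *Rab27a* by 0.47 and *Sytl4* by 0.43, each without overlap (exact permutation p = 0.0286 for each). *Cd63* differed by 0.87 with an overlap at ApoE-/- replicate 1 (exact permutation p = 0.0571). These 9 tests were not adjusted for their number. Without ApoE-/- replicate 1 the difference was 1.89 for *Selp*, 1.19 for *Plat*, 1.10 for *Cd63*, 0.94 for *Angpt2*, 0.56 for *Rab3d*, 0.55 for *S100a10*, 0.46 for *Rab27a* and 0.44 for *Sytl4*.

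The choice of markers moved these ratios for most members and not the order of *Selp* and *Vwf*. With *Pecam1* and *Cdh5* alone as reference, 4 of the 9 genes were without overlap and higher, against 22.8% of all genes. Without ApoE-/- replicate 1 these differences ran from -0.0073 for *Vwf* to 1.70 for *Selp*. With 8 markers of arterial endothelium 3 of the 9 were, against 3.76% of all genes. The mean log2 level of these markers differed by -0.06 between the genotypes and by 0.14 without ApoE-/- replicate 1, where it was lowest, at 3.95 against 4.45 to 4.92 in the other 7 aortas. *Selp*, *Cd63* and *Plat* were the 3, with differences of 1.32, 0.47 and 0.59 (exact permutation p = 0.0286 for each). On that scale *Vwf* differed by -0.35 (exact permutation p = 0.0286). It was the 1 of the 9 that was lower in ApoE-/- aortas without overlap, against 0.531% of all genes. *Rab27a* and *Sytl4* differed by 0.08 and 0.04 (exact permutation p = 0.829 and 0.886). Without ApoE-/- replicate 1 the differences on the arterial scale were 1.30 for *Selp*, 0.52 for *Cd63*, 0.61 for *Plat*, -0.41 for *Vwf* and 0.36 for *Angpt2*, and those of the release genes turned to -0.13 for *Rab27a*, -0.14 for *Sytl4*, -0.023 for *Rab3d* and -0.033 for *S100a10*. The markers of capillary and venous endothelium summed to 378 to 529 CPM in ApoE-/- and 663 to 754 CPM in WT aortas, without overlap, while their mean log2 level overlapped and 6 of the 8 had a lower fitted level in ApoE-/- aortas. The other two, *Aplnr* and *Ackr1*, named after their values were seen, were highest in ApoE-/- replicate 1, and their log2 fold changes of 0.38 and 0.37 turned to -0.07 and -0.48 without it. The arterial markers summed to 188 to 348 CPM in ApoE-/- and 267 to 314 CPM in WT aortas, with overlap.

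**Figure D4:**
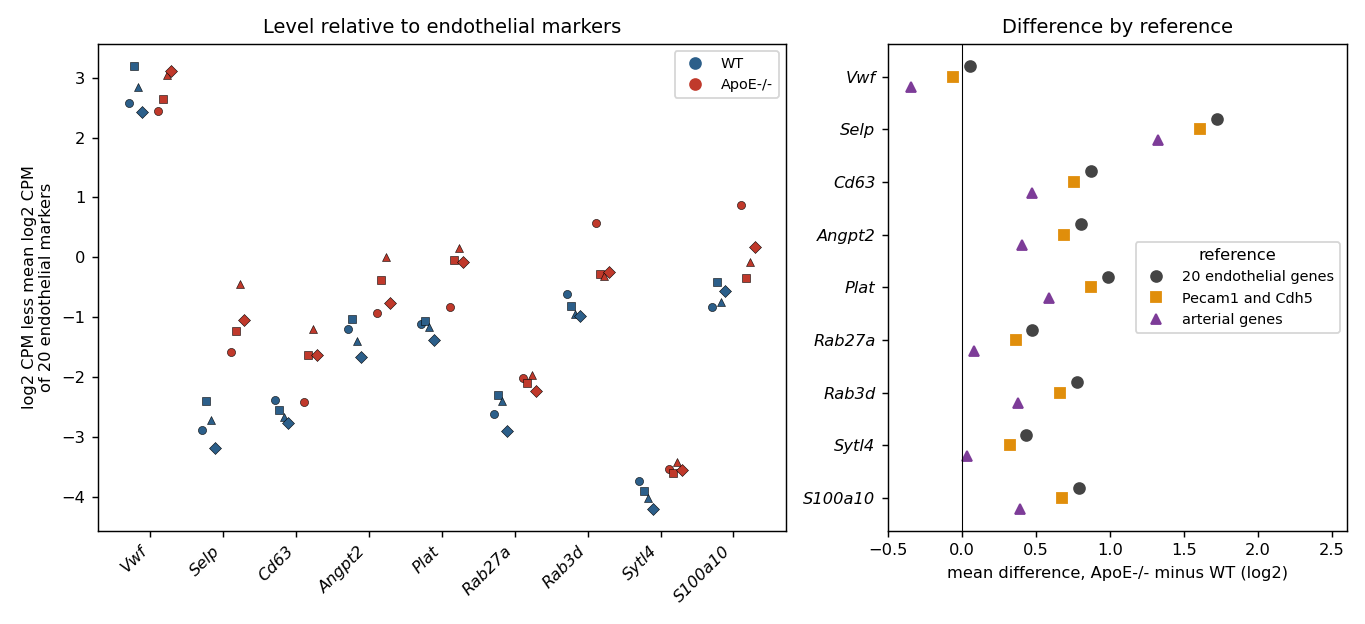
Left, log2 CPM of each gene less the mean log2 CPM of 20 endothelial markers (vertical axis) in each aorta, WT in blue and ApoE-/- in red, one symbol per replicate number (circle 1, square 2, triangle 3, diamond 4). Right, the mean difference ApoE-/- minus WT (horizontal axis, log2) with 3 choices of reference, where *Selp* was the farthest to the right with each (1.72, 1.61 and 1.32) and *Vwf* was the farthest to the left.

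Compared with each other by level per kilobase of exon, *S100a10* and *Vwf* led in both genotypes. The length used was that of all annotated exons of a gene together, which can exceed that of any 1 transcript. In WT aortas *S100a10* was at 69.8 ± 10.9 and *Vwf* at 56.0 ± 13.0 CPM per kb (SD, n = 4), with ranges that overlapped. They were followed, clear of them, by *Rab3d* at 17.4 ± 1.53 and *Angpt2* at 14.2 ± 2.28 CPM per kb, which overlapped, then by *Plat* at 9.22 ± 0.619 CPM per kb, clear of both. *Cd63*, *Rab27a* and *Selp* came next at 5.87 ± 0.447, 5.76 ± 0.946 and 4.30 ± 0.918 CPM per kb, each overlapping its neighbour, and *Sytl4* was last at 1.62 ± 0.158 CPM per kb. The place of *Cd63* is uncertain, since reads shared with the pseudogene may not have been counted. Its exons together span 3682 bases, against 1063 for the transcript Cd63-201, so its level per kilobase may be understated. The order of the other genes depends on this choice of length too. In ApoE-/- aortas *Selp* stood sixth at 10.6 ± 3.42 CPM per kb, above *Cd63* and *Rab27a*, but its range overlapped those of *Plat* and *Cd63*. *S100a10*, which is made by many cell types, was clear of *Vwf* there at 91.9 ± 35.5 against 42.7 ± 11.5 CPM per kb.

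Markers of other cells, some of which make the same proteins, were read beside the 9 genes. The 13 macrophage markers were all higher in ApoE-/- aortas without overlap, 4 of them past the threshold in edgeR and 10 in DESeq2, and their summed level was 567 to 2620 CPM against 286 to 425 CPM. The lowest ApoE-/- sum was that of replicate 1. The 8 fibroblast markers all had a higher fitted level, 0 of them past the threshold in edgeR (3 at an unadjusted p under 0.05) and 2 in DESeq2, with sums of 4492 to 11932 against 4509 to 5116 CPM, and again replicate 1 was the lowest. *Cd63*, *S100a10* and *Plat* are expressed in such cells too, and their part in these values was not tested. The 10 contractile smooth muscle markers summed to 5764 to 23062 and 12738 to 23649 CPM, lowest in the same aorta. The 9 heart muscle markers summed to 23.8 to 132 against 227 to 529 CPM, without overlap. Lymphatic markers summed to 177 to 331 against 239.5 to 368 CPM and adipose markers to 2941 to 11290 against 6396 to 12780 CPM, both with overlap.

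The genes whose log2 CPM followed each of 3 members most closely over the 8 aortas were listed as a description. For *Selp* they were *Hgf*, *Cerk* and *Vcam1* (Pearson r = 0.99 for each), of which *Vcam1*, an adhesion molecule of activated endothelium, was at 169 to 541 CPM in ApoE-/- and 68.3 to 106 CPM in WT aortas. For *Vwf* they were *Clec14a*, an endothelial surface lectin, *Sat1* and *Isg20l2* (r = 0.98, 0.95 and 0.95). For *Cd63* they were *Cldn3*, *Pcdhgc3* and *Emp1* (r = 1.00, 0.99 and 0.98). The points share the difference between genotypes and, for *Cd63*, the low values of ApoE-/- replicate 1.

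The other genes of the pathway were taken from 6 lists by role, of 78 genes, of which 76 passed the filter. In edgeR 3 of the 76 rose and none fell (3.95%, beside 0.464% of all genes), and 15 had an unadjusted p under 0.05, beside 11.4% of all genes. DESeq2 called 8 higher and 1 lower, beside 4.41% of all genes called in either direction. The median log2 fold change of the 76 was 0.17. The genes that rose were *Ccl2*, *Anxa8* and *Timp1*, each of which is also made outside endothelial cells. The lists were chosen with earlier results of these data known, and the study had named these 3 genes as differing. The higher share is therefore no separate evidence about the pathway. DESeq2 called all 3 with any one mouse left out, and limma-voom called *Ccl2* and *Timp1* but not *Anxa8* (adjusted p = 0.0737). In edgeR, with any one mouse left out other than ApoE-/- replicate 1, the threshold was passed by 1 of these genes, *Timp1*, without ApoE-/- replicate 2 and by none in the other 6 fits. Over all genes, 0 to 17 passed it in those edgeR fits. The adjusted p of *Ccl2*, *Anxa8* and *Timp1* rose to at most 0.146, 0.161 and 0.146. Without ApoE-/- replicate 1, 6 of the pathway genes were called higher and 3, *Syt7*, *Rapgef3* and *Gnas*, lower, beside 3.91% of all genes called in that fit.

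Of the other stored or co-released proteins, 1 of 6 rose, with a median log2 fold change of 1.02. This was *Ccl2*, the monocyte chemokine, at 5.44, 5.38, 4.62 and 7.94 CPM in ApoE-/- and 1.42, 1.36, 0.942 and 1.53 CPM in WT replicates 1 to 4 (log2 fold change 2.15, edgeR adjusted p = 0.0355). *Tnfrsf11b*, osteoprotegerin, which binds von Willebrand factor, was at 22.7, 72.3, 209 and 109 CPM against 14.9, 13.4, 15.2 and 12.8 CPM (2.88, adjusted p = 0.0748). *Cxcl1*, a neutrophil chemokine, was at 7.39, 4.20, 11.7 and 7.68 CPM against 2.52, 3.18, 2.16 and 1.82 CPM (1.67, adjusted p = 0.0683). For all 3 the genotypes did not overlap. DESeq2 called each of them, and so did edgeR without ApoE-/- replicate 1.

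None of the 14 other Rabs and effectors passed the threshold in edgeR, 3 did so at an unadjusted p under 0.05 and DESeq2 called 1, *Unc13d*. The smallest p values were those of *Unc13d*, which encodes the tethering factor Munc13-4 (log2 fold change 0.79, edgeR adjusted p = 0.169), *Myo5a*, the myosin that holds granules on actin (0.73, adjusted p = 0.237), and *Unc13b* (-0.33, adjusted p = 0.419). The median of the list was 0.27 with all mice and -0.25 without ApoE-/- replicate 1. None of the 9 genes of SNAREs, their regulators and synaptotagmins passed in edgeR at an adjusted or an unadjusted p under 0.05, or in DESeq2. Here *Stxbp2*, *Syt5* and *Stx4a* had the smallest p, with log2 fold changes of 0.60, 1.04 and 0.08 (edgeR adjusted p = 0.503, 0.848 and 0.862). That of *Syt5* turned to -1.99 without that mouse, and that of *Stxbp2* was 0.37 without ApoE-/- replicate 4. *Syt7*, named after its values were seen, was at -0.13 with all mice and was called at -0.81 without ApoE-/- replicate 1 (edgeR adjusted p = 0.0274).

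Of the 16 signalling and actomyosin genes none passed in edgeR, 4 had an unadjusted p under 0.05 and DESeq2 called 1 higher and 1 lower. *Rapgef3* encodes Epac1, the cAMP-regulated exchange factor that drives release in response to adrenaline. It was at 66.8, 67.0, 72.2 and 66.1 CPM in ApoE-/- and 96.9, 87.9, 101 and 110.3 CPM in WT replicates 1 to 4. The genotypes were clear of each other (log2 fold change -0.54 ± 0.10, SE, edgeR adjusted p = 0.0560, DESeq2 adjusted p = 2.66e-05), beside a median of -0.42 for the endothelial markers. *Anxa2*, the annexin that S100a10 binds, was at 306, 228, 279 and 308 CPM against 198, 226, 208 and 201 CPM (0.43, edgeR adjusted p = 0.207, DESeq2 adjusted p = 0.0279). *Ralgds*, the exchange factor of RalA, had a log2 fold change of 1.01 (edgeR adjusted p = 0.294), with ApoE-/- replicate 1 the highest at 157 CPM, and of 0.58 without that mouse.

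Of the 17 genes of granule formation and maturation 1 rose. *Anxa8* encodes annexin A8, which the delivery of CD63 to the granule needs, and it was at 15.1, 19.5, 48.4 and 34.4 CPM in ApoE-/- and 4.68, 2.90, 2.88 and 4.21 CPM in WT replicates 1 to 4 (log2 fold change 3.00, edgeR adjusted p = 0.0380). Its ApoE-/- values were lowest in replicates 1 and 2, as were those of *Selp*. The adaptor gene *Ap1b1* (0.44, adjusted p = 0.453, and 0.27 without ApoE-/- replicate 1) and *Hps3* (0.17, adjusted p = 0.516) were next by p. The median of the list was 0.14. Of the 14 tested genes of receptors, inhibitors and other partners of the cargo 1 rose, with a median of 0.20. *Timp1*, the metalloproteinase inhibitor that binds CD63, was at 37.7, 55.2, 108 and 90.4 CPM against 6.61, 8.94, 6.32 and 6.46 CPM (log2 fold change 3.36, edgeR adjusted p = 0.0353). *Selplg* is given above. *Angpt1*, which encodes the ligand that opposes angiopoietin-2 at Tie2, was at 14.2, 14.7, 20.1 and 27.3 CPM against 33.8, 37.2, 28.9 and 22.3 CPM, with overlap at both replicates 4 (log2 fold change -0.68, edgeR adjusted p = 0.317).

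**Figure D5:**
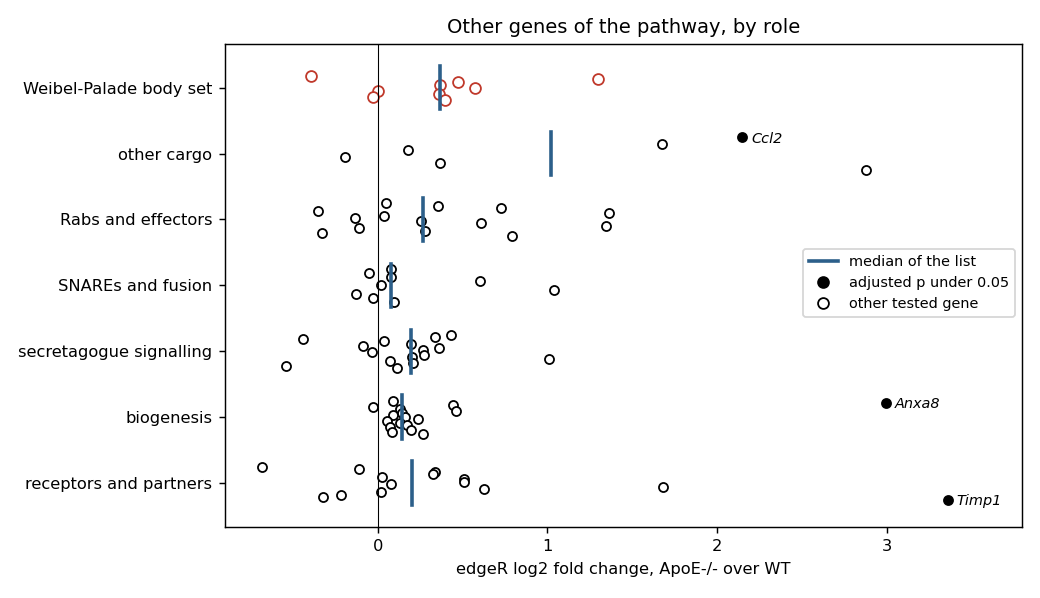
edgeR log2 fold change, ApoE-/- over WT (horizontal axis), of each tested gene in the set of 9 (red circles) and in 6 lists of other pathway genes (black circles), with the median of each list as a blue bar. The 3 filled circles are the genes past an adjusted p of 0.05, *Ccl2*, *Anxa8* and *Timp1*, and the medians of the lists lie between 0.08 and 1.02.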

How the data were processed

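The authors sequenced ribodepleted total RNA from 8 aortas with a stranded kit and deposited, for each mouse, the raw counts by gene in 1 file, in read pairs and without normalization. The submitters' processing notes name TopHat2 and HTSeq and the builds GRCm38 and mm10. The annotation release is not given in the sources used here. Pairs not assigned to a gene (64.4% to 67.7% per ApoE-/- and 69.8% to 72.1% per WT library) were left out. No 2 libraries were copies of each other.

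Counts were filtered with filterByExpr and scaled by TMM in edgeR 4.0.16 (R 4.3.3), and the genotypes were compared with the two-sided robust quasi-likelihood test, genotype being the only factor. The Benjamini-Hochberg adjustment ran over 15077 genes (threshold 0.05). The standard error was taken as the log2 fold change over the root of F. Levels are CPM, and log2 CPM used a prior count of 2. Single values were compared by exact permutation over 70 assignments of mice. DESeq2 1.42.0, which the study names, and limma-voom 3.58.1 were alternatives, as were other scalings, filters, a replicate block and leaving out mice. The scripts were tested on simulated data. The members and lists were chosen with earlier results of these data known. One gene of the pathway lists is not reported here and was left out of their counts. The genes named were the 9 members, *Apoe*, the genes past the threshold in each pathway list or, where these were fewer than 3, its 3 smallest p, and the 3 closest correlates of *Vwf*, *Selp* and *Cd63*. Counting depth limits precision most for *Sytl4*. Coordinates are from GENCODE M21, and promoters from a table of RefSeq starts (GRCm38.p6), in which 5 of the 9 members were matched. *Pf4*, *Aplnr*, *Ackr1*, *Rab3b*, *Rab15*, *Syt7* and *Gnas* were named outside the rule on named genes, after their values were seen.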

Additional observations from a re-analysis of the deposited data

Results flagged for a closer look

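The relative level of *Rab3d* in ApoE-/- aortas, as log2 CPM less the mean of the 20 endothelial markers, had 1 value far from the other 3. It was 0.58 in replicate 1 and -0.28, -0.31 and -0.24 in replicates 2 to 4, and the gap was 0.929 of the whole range, above Dixon's critical value for 4 samples. Of 36 groups of values compared in this way, this was the 1 that passed, and chance alone passes about 1 in 20.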

How the results depend on the processing

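The call for the 9 genes depended on the tool and on ApoE-/- replicate 1. DESeq2 called 1 member (*Selp*, log2 fold change 1.29), and edgeR called 3 without ApoE-/- replicates 1 and 3 together (*Selp* 1.26, *Cd63* 0.57, *Plat* 0.73). Over all genes these fits called 724 and 822. With 1 mouse left out at a time, in edgeR or, as an alternative added after seeing the data, in DESeq2, 0 to 3 members were called. Over all genes, 0 to 593 were called in edgeR and 427 to 1548 in DESeq2 with 1 mouse left out. The log2 fold changes then ran from 1.08 to 1.46 for *Selp*, 0.32 to 0.67 for *Cd63*, 0.48 to 0.75 for *Plat*, 0.20 to 0.51 for *Angpt2*, -0.58 to -0.23 for *Vwf*, 0.12 to 0.47 for *Rab3d*, 0.12 to 0.55 for *S100a10*, -0.089 to 0.092 for *Rab27a* and -0.089 to 0.034 for *Sytl4*. *Rab27a*, at 0.00 in the main test, was at -0.0060 with DESeq2, -0.0052 with RLE scaling, -0.031 with upper-quartile scaling, -0.00017 without the filter and -0.018 without both mice. Of the other pathway genes, DESeq2 called 9, limma-voom 2 (losing *Anxa8*), the fit without both mice 10 and the replicate block 0, and 0 to 12 were called with 1 mouse left out. Over all genes, DESeq2 called 724, limma-voom 29, the fit without both mice 822 and the replicate block 2. *Syt5* turned to -1.13 with limma-voom, -0.95 with the replicate block and -3.75 without both mice, and ran from -2.01 to 1.45 with 1 mouse left out. The cause was not tested beyond the construction of these fits.

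The replicate numbers belong to different mice, and same-numbered libraries did not deviate together (correlations 0.06, -0.45, 0.32 and 0.16). With the replicate block *Selp* was at 1.27 (adjusted p = 0.161), and no member was called, while 2 of all 15077 genes were.

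Relative to *Pecam1* and *Cdh5*, *Vwf* turned to -0.061, *Cd63* passed (0.76), and *Angpt2* (0.69), *Rab27a* (0.36), *Sytl4* (0.32) and *S100a10* (0.68) no longer did. Relative to the arterial markers, *Vwf* turned to -0.35, *Cd63* passed (0.47), and *Angpt2* (0.41), *Rab27a* (0.077), *Rab3d* (0.37), *Sytl4* (0.036) and *S100a10* (0.39) no longer did. As an alternative added after seeing the data, both references were used without ApoE-/- replicate 1. With *Pecam1* and *Cdh5*, *Rab3d* was then at 0.38, *S100a10* at 0.37 and *Sytl4* at 0.26. With the arterial markers, *Vwf* was at -0.41, *Selp* at 1.30, *Plat* at 0.61 and *Angpt2* at 0.36, and *Rab27a* (-0.13), *Sytl4* (-0.14), *Rab3d* (-0.023) and *S100a10* (-0.033) turned below 0. Another prior count or RLE scaling changed no call. With 1 mouse left out, the difference relative to the 20 markers turned below 0 for *Vwf* (lowest -0.060) and stayed above 0 for the other 8 genes (*Selp* 1.51 to 1.89).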
